A study of Mus musculus with 16 samples.

Results

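The genes described here are 10 sialyltransferase genes of memory CD4+ T cells: St3gal1, St3gal2, St3gal3, St3gal4, St3gal6, St6gal1, St6galnac3, St6galnac4, St6galnac6 and St8sia4. They were taken by their gene symbols, 10 of the 56748 genes listed, each with 1 Ensembl identifier and counts in all 16 samples. The cells were splenic CD4+ T cells of a memory phenotype (CD25low/- CD62L- CD44high), sorted by flow cytometry from HP1-deficient mice and their wild-type (WT) littermates. HP1α and HP1γ, encoded by Cbx5 and Cbx3, are proteins that bind silent chromatin, and the study asked what their loss does to T cells. RNA-Seq gave 4 samples in each of 4 groups.

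The HP1α KO group was Hp1a-/-, made by crossing a floxed Hp1a allele with CMV-cre mice, a Cre active in all tissues, and intercrossing heterozygotes. The HP1α WT group was made of Hp1a+/+ littermates. The HP1γ KO group was Hp1g flox/flox with Cd4-cre, which acts in T cells from the thymus on, and the HP1γ WT group was Hp1g flox/flox without Cre, so the transgene and the knockout cannot be told apart in that line. Both lines had a mixed genetic background that included C57BL/6 and were kept apart. The study used sex-matched mice aged some weeks, and reported that males were used for its sequencing. The labels give no age for a sample. The labels do not say whether the 4 samples of a group came from 4 animals, so p-values measure the spread between these samples only. A treatment label that names transferred cells is not part of the study's account of the memory cells and was not used.

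Sialyltransferases are Golgi enzymes that move sialic acid from CMP-sialic acid onto the ends of sugar chains. The ST3GAL enzymes and ST6GAL1 cap terminal galactose in different linkages, the ST6GALNAC enzymes add sialic acid to N-acetylgalactosamine, often of chains that are sialylated already, and ST8SIA enzymes add sialic acid to sialic acid. On T cells these caps decide which lectins can bind the surface, among them selectins, siglecs and galectins, and sialylation of O-glycans is known to change as T cells pass from the naive to the activated and memory state.

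The genes lie on 8 chromosomes. In GRCm39 coordinates St3gal1 spans chr15:66974724-67048690 on the minus strand, St6galnac3 chr3:152903903-153430816 on the minus strand and St3gal4 chr9:34957872-35034889 on the minus strand. St6gal1 spans chr16:23043460-23179103 on the plus strand, and St3gal6 lies on the same chromosome at chr16:58286438-58344780 on the minus strand. St6galnac4 (chr2:32476963-32489710) and St6galnac6 (chr2:32489721-32510825) lie in tandem on the plus strand with 10 bases between their annotated ends, so reads that run past the end of the first gene could be counted for the second. Promoters were read from a RefSeq table of GRCm38.p6, from 250 bases before to 50 bases after an annotated start, which held 11 starts for 8 of the 10 genes. St3gal1 and St3gal2 had no entry. The median of 32851 such promoters held 7 CpG dinucleotides. St3gal4 (31 CpG), St3gal3 (26), St6galnac4 (23), St8sia4 (22) and St6galnac3 (20) lay above that. The starts of St3gal6 held 3 and 20, the 3 starts of St6gal1 held 7, 10 and 6, and St6galnac6 held 2. Of the 250 bases before that St6galnac6 start, 240 lie within St6galnac4, so its count describes the end of the gene before it.

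The promoters of St6galnac3 and St3gal4 are shown because these genes were called between the mouse lines, St3gal4 between the KO groups only. Their windows are chr3:153725084-153725383 and chr9:35116815-35117114 (both minus strand), printed 5′ to 3′ along the gene. Capitals mark matches, on either strand, to the GC box GGGCGG, the CCAAT box CCAAT, the TATA box TATAAA, the RUNX motif TGTGGT, the ETS motif CCGGAA, the E-box CACGTG or the AP-1 motif TGANTCA. These occur in 35.7%, 37.4%, 13.6%, 16.8%, 14.9%, 7.15% and 7.81% of all promoters of that length, in that order.
St6galnac3: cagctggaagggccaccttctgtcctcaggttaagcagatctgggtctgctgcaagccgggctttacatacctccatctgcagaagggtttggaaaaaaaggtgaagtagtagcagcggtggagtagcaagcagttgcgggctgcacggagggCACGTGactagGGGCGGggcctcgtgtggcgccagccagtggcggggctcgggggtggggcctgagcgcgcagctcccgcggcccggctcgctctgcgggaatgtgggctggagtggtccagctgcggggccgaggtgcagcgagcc
St3gal4: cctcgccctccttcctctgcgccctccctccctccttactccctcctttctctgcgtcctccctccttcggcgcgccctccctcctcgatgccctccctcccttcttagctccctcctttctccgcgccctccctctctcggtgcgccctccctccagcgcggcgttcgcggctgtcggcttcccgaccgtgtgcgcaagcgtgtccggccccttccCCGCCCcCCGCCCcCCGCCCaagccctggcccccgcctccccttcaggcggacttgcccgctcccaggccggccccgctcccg
The St6galnac3 window holds an E-box 97 bases and a GC box 86 bases before the start site. The St3gal4 window holds 3 GC boxes that follow each other 33, 26 and 19 bases before the start site. The other motifs had no match in either window. No matches overlapped in these windows.

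The libraries held between 26694045 and 40199637 estimated counts, with similar ranges in the 4 groups. CD4 T cell markers summed to between 3732 and 4388 CPM (counts per 1000000) and Cd44 was present in every sample, while B cell markers summed to between 48.2 and 79.9 CPM, myeloid markers to between 29.5 and 125 CPM, dendritic cell markers to between 16.7 and 150 CPM and erythroid markers to between 10.1 and 724 CPM. Regulatory T cell markers (Foxp3, Il2ra, Ikzf2 and Ctla4) summed to between 442 and 866 CPM. The largest part in every sample was Ctla4 (240 to 481 CPM), and Foxp3 stood at 57.6 to 164 CPM. Naive T cell markers summed to between 2087 and 2541 CPM, of which Tcf7 made up 1256 to 1571 CPM. Of the targeted genes, Cbx5 was 27.1 CPM on average in HP1α KO and 40.3 CPM in HP1α WT (log2 fold change -0.58, SE 0.145, edgeR adjusted p = 0.946, not called). These groups did not overlap, at 23.0 to 29.0 CPM in KO and 33.8 to 54.0 CPM in WT. Cbx5 was also 25.4 CPM in HP1γ KO and 31.3 CPM in HP1γ WT, so its level across the lines does not check the HP1α labels. The study reported that HP1α protein was absent from naive CD4+ T cells of its HP1α-deficient mice. Cbx3 was 47.5 CPM in HP1γ KO and 84.5 CPM in HP1γ WT (log2 fold change -0.82, SE 0.0790, edgeR adjusted p = 0.00150). A first principal component with 42.2% of the variance separated the mouse lines. Replicates 1 and 2 of the lines lay farther apart on it (0.27 to 0.31 in HP1α samples, -0.42 to -0.24 in HP1γ samples) than replicates 3 and 4 (0.13 to 0.21 and -0.21 to -0.03). The labels do not say what the replicate numbers stand for.

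Levels between genes were compared as transcripts per 1000000 (TPM), which are scaled by transcript length. St6gal1, which caps galactose of N-glycans and makes the ligand of the siglec CD22, had the highest level, with a median of 89.2 TPM over the 16 samples and a range from 78.3 to 101. St3gal1, which caps the core O-glycan and limits its branching, followed with a median of 64.3 TPM and a range from 37.1 to 82.0. St6gal1 was above St3gal1 in 16 of 16 samples, although the ranges overlapped. St3gal6, which acts on N-acetyllactosamine chains, had a median of 52.4 TPM and lay under St3gal1 in 13 of 16 samples. The exceptions were HP1γ KO replicate 1 and HP1γ WT replicates 2 and 3. The means of all 4 groups gave the order St6gal1, St3gal1, St3gal6. In HP1γ WT the means of St3gal1 and St3gal6 were 52.4 and 51.6 TPM, so these 2 genes could not be ordered firmly there.

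St3gal4, which contributes with St3gal6 to the sialyl Lewis X ligands of selectins, had a median of 32.6 TPM. St6galnac4, which adds the last sialic acid of the disialylated core O-glycan, had 29.3 TPM and lay under St3gal4 in 15 of 16 samples. The next step down was the only pair of neighbours in the order whose ranges did not overlap: St6galnac4 spanned 25.9 to 33.0 TPM and St8sia4, a polysialyltransferase, 15.7 to 25.0 TPM. St8sia4 (median 18.1 TPM) and St3gal2 (median 16.4 TPM), an enzyme of O-glycans and gangliosides, could not be ordered firmly, since St8sia4 was higher in 12 of 16 samples and their ranks were exchanged in HP1α KO.

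St6galnac3 (8.56 TPM), St6galnac6 (7.03 TPM), both able to act on gangliosides, and St3gal3 (6.28 TPM), which acts on N-glycan chains, made up the bottom of the order. The first was above the second in 10 of 16 samples and the second above the third in 11, so their order was within the spread of the samples. The lowest estimated count of any of the 10 genes in any sample was 201, for St6galnac6, so no difference in these 10 genes rests on a handful of reads. St6galnac4 thus stood about as high as St3gal4 while its tandem neighbour St6galnac6 stood near the bottom.

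**Figure D1:**
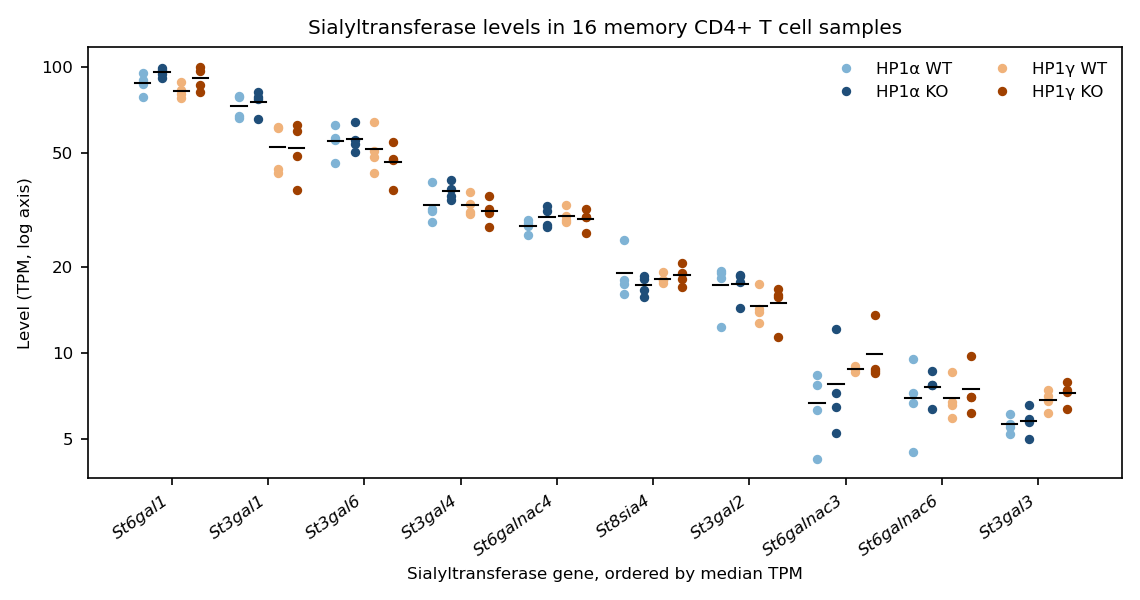
Level in TPM (log axis) of the 10 sialyltransferase genes, ordered by their median, with 1 point for each of the 16 samples, coloured by group, and a black bar for the mean of each group of 4. The order falls from St6gal1 with a median of 89.2 TPM to St3gal3 with 6.28 TPM, and St3gal1 is the gene whose HP1α and HP1γ samples stand most visibly apart among the higher genes.

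Together the 10 genes summed to between 271 and 372 TPM per sample, with a median of 334, and made up between 65.9% and 93.4% of the TPM of all sialyltransferase genes. The lower shares were those of HP1γ samples, in which St6galnac1 and St6galnac2 were high. St6gal1 and St3gal1 alone made up between 28.9% and 48.1%. The 5 St3gal genes summed to 192 ± 12.5 TPM (SD, n = 4) in HP1α KO, 184 ± 17.1 in HP1α WT, 153 ± 21.5 in HP1γ KO and 158 ± 21.9 in HP1γ WT. The 3 St6galnac genes described here summed to between 41.6 and 46.9 TPM in the means of the 4 groups. Among the other sialyltransferases, St8sia1, the GD3 synthase, had a median of 15.3 TPM, St8sia6 4.61 and St3gal5, the GM3 synthase, 2.86. St6gal2, St8sia2 and St8sia3 were listed at 0 in all 16 samples, St8sia5 in 13 and St6galnac5 in 12.

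Loss of HP1α was asked about first. None of the 10 genes passed an adjusted p of 0.05 in the HP1α KO against its WT littermates (edgeR quasi-likelihood test, 8 samples), and this was also so for all genes tested, of which 0% were called. Of 14881 genes, 635 had an unadjusted p under 0.05, and DESeq2 called 5. The log2 fold changes of the 10 genes ran from -0.16 (St8sia4) to 0.16 (St6gal1) with a median of 0.02. KO and WT samples overlapped for all 10 genes, against 2.96% of all genes whose groups did not overlap.

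St6gal1 had the smallest unadjusted p of the 10 genes, the only one under 0.05. Its levels were 251, 249, 271 and 259 CPM in HP1α KO and 252, 223, 242 and 204 CPM in HP1α WT. Of the WT samples, 1 lay inside the range of the KO samples and 3 lay below it. The log2 fold change was 0.16 (SE 0.0683, 95% interval 0.01 to 0.31, edgeR adjusted p = 0.946). B cells also express St6gal1, and the sum of the 8 B cell markers, none of which was at 0 in all samples, was 59.2 to 79.9 CPM in HP1α KO and 53.1 to 69.7 CPM in HP1α WT. Their part in the value was not tested. In bulk samples fewer cells of a type and less RNA per cell cannot be told apart.

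The intervals of the other genes bound their differences before any correction for GC content. When all genes were cut into 5 equal bins by GC content, the median log2 fold change in this comparison rose with it. It was -0.11 in the lowest bin, where St8sia4 (36.3% GC) and St3gal6 (42.4% GC) lay, and 0.06 in the highest. The 95% interval was -0.13 to 0.17 for St3gal1 (log2 fold change 0.02), -0.22 to 0.27 for St3gal2 (0.02), -0.21 to 0.31 for St3gal3 (0.05), -0.06 to 0.34 for St3gal4 (0.14) and -0.31 to 0.16 for St3gal6 (-0.08). It was -0.37 to 0.31 for St6galnac3 (-0.03), -0.07 to 0.28 for St6galnac4 (0.10), -0.35 to 0.25 for St6galnac6 (-0.05) and -0.41 to 0.09 for St8sia4 (-0.16). No interval of the 10 genes reached a log2 change of 1 in either direction, the threshold of the study for a differentially expressed gene. In the exact permutation test over samples the smallest p of the 10 genes was 0.0857, for St6gal1, where a 4 against 4 design can reach 0.0286.

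Loss of HP1γ gave the same count of calls in these genes, 0 of 10 by edgeR, where 0.327% of 14975 genes were called, and none of the 10 had an unadjusted p under 0.05 or was called by DESeq2. Of the 14975 genes, 1784 had an unadjusted p under 0.05. Fold changes ran from -0.18 (St3gal6) to 0.06 (St6gal1) on the log2 scale, with a median of -0.02, and KO and WT samples overlapped for all 10 (7.10% of all genes had groups that did not overlap). St3gal4 had the smallest p. It stood at 33.1, 34.4, 36.9 and 41.0 CPM in HP1γ KO and 41.0, 37.9, 40.1 and 43.3 CPM in HP1γ WT, a log2 fold change of -0.15 (SE 0.0815, 95% interval -0.33 to 0.03, edgeR adjusted p = 0.495). Only the fourth KO sample lay among the WT samples. St3gal6 was at 25.2, 20.6, 25.2 and 27.8 CPM in HP1γ KO and 25.4, 29.2, 32.8 and 25.4 CPM in HP1γ WT (log2 fold change -0.18, SE 0.114, edgeR adjusted p = 0.556).

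The least certain gene in this line was St3gal1, with a 95% interval from -0.43 to 0.28 around a log2 fold change of -0.07, because its HP1γ samples were spread widely. The intervals of the 7 genes other than St3gal1, St3gal4 and St3gal6 lay between -0.32 and 0.30. St6gal1 (0.06, interval -0.11 to 0.23) and St8sia4 (-0.01, interval -0.16 to 0.14) were among the tightest. The B cell markers were 64.9 to 77.8 CPM in HP1γ KO and 48.2 to 55.5 CPM in HP1γ WT and did not overlap, and their part in the value of St6gal1 was not tested.

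Whether the knockouts differed in effect was tested as an interaction over all 16 samples. None of the 10 genes was called by edgeR, beside 0.0507% of 15776 genes. St3gal4 alone of the 10 had an unadjusted p under 0.05, beside 1511 of all 15776 genes. Its effects were 0.14 in the HP1α line and -0.15 in the HP1γ line, a difference of 0.30 (SE 0.123, 95% interval 0.04 to 0.56, edgeR adjusted p = 0.462). The other 9 differences ran from -0.14 (St8sia4) to 0.13 (St6galnac4). In 5 equal bins of all genes by GC content, the median difference went from -0.13 (lowest bin, that of St8sia4) to 0.07 (highest).

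**Figure D2:**
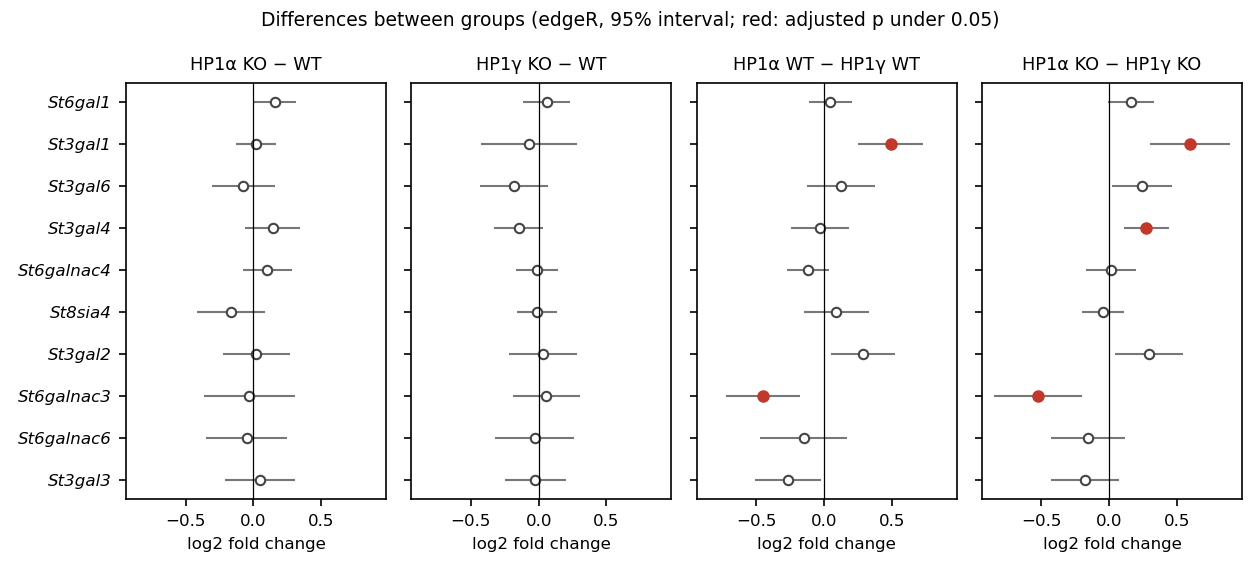
log2 fold change with its 95% interval for each of the 10 genes in the 4 comparisons, from edgeR fits of 8 samples each, with filled red points for an adjusted p under 0.05 and open points for the rest. The points of both KO effects lie within 0.18 of 0 and none is filled, whereas St3gal1 is filled to the right (0.49 and 0.60) and St6galnac3 to the left (-0.45 and -0.53) in both comparisons of the lines.

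The mouse lines differed more than the genotypes did. The WT groups and the KO groups of the lines were compared in separate fits that share no sample, each as HP1α line minus HP1γ line. In the KO groups the line also stands for which HP1 protein was lost, and the lines cannot be told apart from anything else that differed between their colonies. Among the WT samples 1 of the 10 genes was called higher (St3gal1) and 1 lower (St6galnac3) in the HP1α line, where 4.55% of all genes tested were called higher and 8.25% lower. Among the KO samples 2 were called higher (St3gal1 and St3gal4) and 1 lower (St6galnac3), where 16% of all genes were called higher and 16.8% lower. Counts of 2 and 3 in 10 genes are near what these shares give, and nothing about the 10 genes as a group is read from them. The median log2 difference of the 10 genes was 0.01 in WT and 0.09 in KO, and none reached 1. Samples of the lines did not overlap for 3 genes in WT (St3gal1 higher, St6galnac3 and St3gal3 lower) and 2 in KO (St3gal1 and St3gal4 higher), beside 19.5% and 32.3% of all genes. Between the KO groups the erythroid markers differed too, at 20.2 to 112 CPM in HP1α KO and 50.8 to 724 CPM in HP1γ KO, with Hba-a1 and Hbb-bs, 2 of the 2 markers tested, called lower in the HP1α line. Dendritic cell markers were at 19.1 to 54.1 CPM and 39.3 to 150 CPM, with 1 of 5 called lower (Siglech). In WT none of these markers was called. Their part in the KO line differences was not tested.

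St3gal1 had the largest line difference of the 10 genes. It stood at 273, 264, 239 and 233 CPM in HP1α WT and 161, 148, 201 and 205 CPM in HP1γ WT, so the lowest HP1α sample lay above the highest HP1γ sample. In the KO groups it stood at 270, 260, 237 and 257 CPM (HP1α) and 124, 156, 194 and 203 CPM (HP1γ), again without overlap. The mean was 41.0% higher in the HP1α line among WT and 51.3% higher among KO samples. On the log2 scale the differences were 0.49 (SE 0.109, 95% interval 0.25 to 0.73, edgeR adjusted p = 0.0183) and 0.60 (SE 0.133, 95% interval 0.30 to 0.89, edgeR adjusted p = 0.00816). The exact permutation test over samples gave p = 0.0286 in either comparison, the smallest value it can give.

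The gap in St3gal1 was wide in replicates 1 and 2 of both lines and narrow in replicates 3 and 4. From replicates 1 and 2 alone, 2 against 2 samples, the log2 difference was 0.79 in WT and 0.93 in KO. From replicates 3 and 4 alone it was 0.22 (edgeR adjusted p = 0.303) and 0.31 (edgeR adjusted p = 0.141), the same direction and no call. The difference between the splits was not tested. Calls over all genes followed the same split, since edgeR called 2997 genes in WT and 6709 in KO from replicates 1 and 2, and 26 and 85 from replicates 3 and 4. With the split as a term in the fit of 8 samples, St3gal1 was at 0.51 in WT (edgeR adjusted p = 0.0191) and 0.62 in KO (0.00688). The call of St3gal1 in WT was lost without HP1α WT replicate 1 (edgeR adjusted p = 0.0672) or HP1γ WT replicate 1 (0.0611), while the call in KO held without any single sample (0.00405 to 0.0290).

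St6galnac3 went the other way. Its levels were 9.41, 7.31, 10.2 and 8.05 CPM in HP1α WT and 11.5, 12.8, 12.2 and 11.2 CPM in HP1γ WT, without overlap. In the KO groups they were 7.23, 7.70, 10.7 and 8.53 CPM (HP1α) and 12.3, 11.7, 14.7 and 10.7 CPM (HP1γ), where the highest HP1α sample and the lowest HP1γ sample met. The HP1α line was 26.6% lower among WT and 30.7% lower among KO samples. The log2 differences were -0.45 (SE 0.125, 95% interval -0.73 to -0.17, edgeR adjusted p = 0.0412) and -0.53 (SE 0.147, 95% interval -0.85 to -0.20, edgeR adjusted p = 0.0206), and the exact permutation p was 0.0286 and 0.0571.

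These St6galnac3 calls were near the threshold. The WT call was lost without any 1 of 6 of the 8 samples (edgeR adjusted p 0.0271 to 0.110 over the 8), namely all but HP1α WT replicate 3 and HP1γ WT replicate 4. The KO call was lost without HP1α KO replicate 1, HP1α KO replicate 2 or HP1γ KO replicate 3 (0.00671 to 0.0611 over the 8). A correction for GC content and transcript length, chosen after seeing the data, gave -0.38 (edgeR adjusted p = 0.0661) in WT and -0.34 (0.0972) in KO. From replicates 1 and 2 the differences were -0.54 in WT and -0.68 in KO, and from replicates 3 and 4 they were -0.36 and -0.41. The direction was the same in all of these fits. In TPM the WT samples did not overlap either (4.29 to 8.39 in HP1α and 8.58 to 9.02 in HP1γ), and the KO samples did (5.25 to 12.2 and 8.53 to 13.6).

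St3gal4 differed between the lines in the KO samples. It stood at 43.2, 42.3, 43.8 and 46.3 CPM in HP1α KO and 33.1, 34.4, 36.9 and 41.0 CPM in HP1γ KO, without overlap, and at 38.2, 36.5, 36.7 and 47.7 CPM in HP1α WT and 41.0, 37.9, 40.1 and 43.3 CPM in HP1γ WT, where HP1α samples lay below, among and above the HP1γ samples. The log2 differences were 0.27 in KO (SE 0.0753, 95% interval 0.11 to 0.44, edgeR adjusted p = 0.0200) and -0.03 in WT (SE 0.0963, 95% interval -0.24 to 0.18, edgeR adjusted p = 0.867). The difference between these values is the interaction given above, which was not called. The KO call was lost without HP1γ KO replicate 1, HP1γ KO replicate 2 or HP1α KO replicate 4 (edgeR adjusted p 0.00581 to 0.0598 over the 8 samples), and from replicates 3 and 4 alone the difference was 0.20 (edgeR adjusted p = 0.274).

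**Figure D3:**
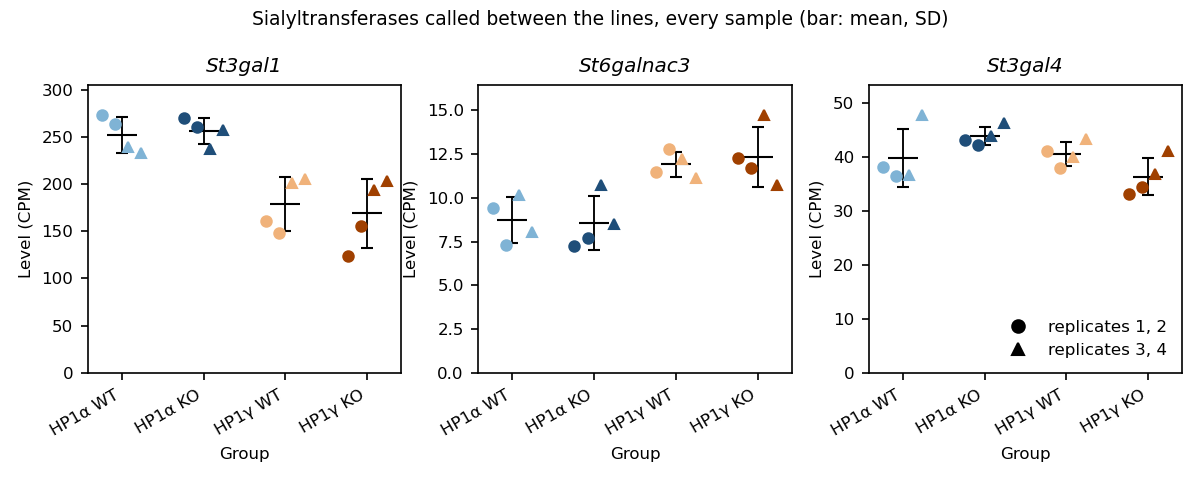
CPM of the 3 genes called between the lines in every sample, by group, with circles for replicates 1 and 2, triangles for replicates 3 and 4, and black bars for the mean and SD of 4 samples. St3gal1 is above 230 CPM in all 8 HP1α samples and at most 205 CPM in all 8 HP1γ samples, and the HP1γ triangles lie above the HP1γ circles.

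The other ST3GAL genes were not called. St3gal2, the enzyme nearest to St3gal1 in its acceptor, was at 42.9, 41.3, 31.9 and 43.1 CPM in HP1α WT and 32.2, 29.2, 32.4 and 36.5 CPM in HP1γ WT, with only HP1α WT replicate 3 among the HP1γ samples. In KO it was at 40.6, 44.2, 34.6 and 42.4 CPM (HP1α) and 26.1, 33.2, 36.1 and 36.6 CPM (HP1γ), again with only replicate 3 of the HP1α group inside the HP1γ range. Its log2 difference was 0.29 in WT and in KO (SE 0.105 and 0.114, edgeR adjusted p = 0.0956 and 0.0692), and it passed the threshold without HP1α WT replicate 3 (0.38, edgeR adjusted p = 0.0254) or HP1α KO replicate 3 (0.36, 0.0333). St3gal3 was lower in all 4 HP1α WT samples (7.27 to 8.66 CPM) than in HP1γ WT (8.84 to 10.7 CPM), with a log2 difference of -0.27 (SE 0.111, edgeR adjusted p = 0.138) and an exact permutation p of 0.0286. In KO the St3gal3 samples overlapped (7.21 to 9.65 and 8.80 to 9.93 CPM, log2 difference -0.18, edgeR adjusted p = 0.249).

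St3gal6 had log2 differences of 0.12 (WT, edgeR adjusted p = 0.509) and 0.24 (KO, edgeR adjusted p = 0.0864). The KO value of St3gal6 became 0.47 (edgeR adjusted p = 0.00828) after the correction for GC content and transcript length. St8sia4 depended on that correction even more: its uncorrected log2 difference in KO was -0.04 (SE 0.0701, edgeR adjusted p = 0.660) and the corrected one 0.46 (edgeR adjusted p = 0.00773), a reversed sign. The longest St8sia4 transcript has 10122 bases and 36.3% GC, and the St3gal6 one 6484 bases and 42.4% GC. Between the KO groups the median log2 difference of all genes went from -0.19 among genes with the lowest GC content to 0.11 among those with the highest, when genes were cut into 5 equal bins, and from 0.11 in the bin of the shortest transcripts to -0.10 in that of the longest. Between the WT groups the same medians went from -0.04 to 0.04 and from 0.03 to -0.02. Line differences of these 2 genes therefore cannot be given without naming the correction.

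St6gal1 stood at 252, 223, 242 and 204 CPM in HP1α WT and 224, 225, 228 and 214 CPM in HP1γ WT, with a log2 difference of 0.05 (SE 0.0732, 95% interval -0.11 to 0.21, edgeR adjusted p = 0.705). In KO the difference was 0.16 (SE 0.0770, 95% interval -0.01 to 0.33, edgeR adjusted p = 0.131). Because St3gal1 differed between the lines and St6gal1 did so little, the ratio of St3gal1 to St6gal1 CPM was 0.875 to 1.18 in the 8 HP1α samples and 0.612 to 0.959 in the 8 HP1γ samples. The highest HP1γ ratio belonged to HP1γ WT replicate 4 and the lowest HP1α ratio to HP1α KO replicate 3, and the ratios overlapped there.

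St6galnac4 and St6galnac6 showed no call. St6galnac4 ranged from 42.9 to 52.3 CPM over the 16 samples, the narrowest span of the 10 genes relative to its level, with log2 differences of -0.12 in WT (95% interval -0.27 to 0.04) and 0.01 in KO (-0.17 to 0.20). St6galnac6 ranged from 6.35 to 9.83 CPM, with -0.15 in WT (-0.47 to 0.17) and -0.16 in KO (-0.43 to 0.12). St8sia4 in WT had a log2 difference of 0.09 (-0.15 to 0.33), and its highest sample, HP1α WT replicate 2, stood at 86.5 CPM where the other HP1α WT samples were at 59.1 to 63.8 CPM. Without that sample the difference was -0.04.

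**Figure D4:**
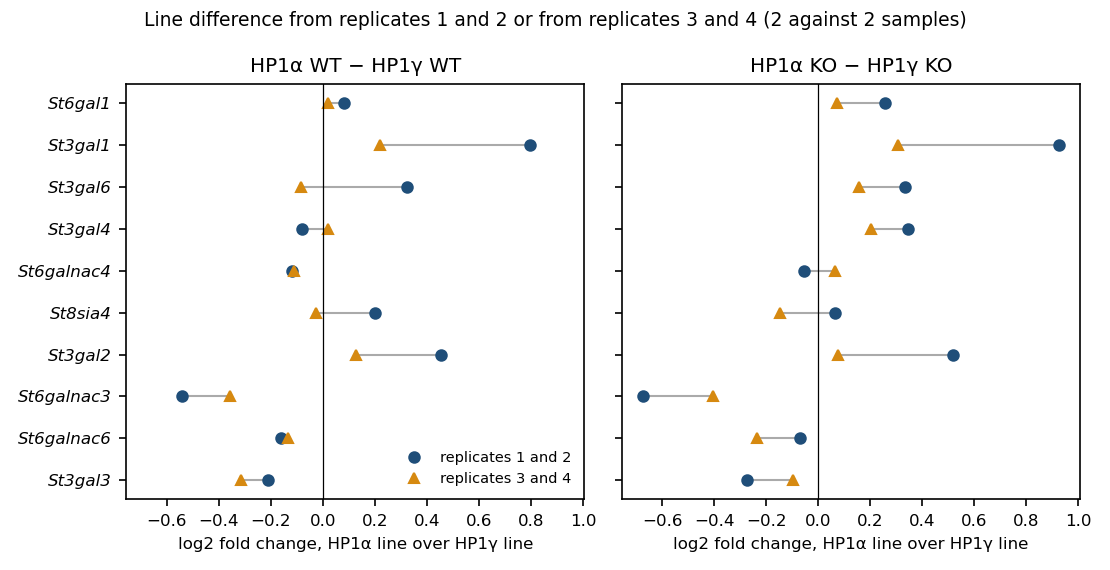
log2 difference between the lines for each gene, computed from replicates 1 and 2 only (circles) and from replicates 3 and 4 only (triangles), 2 against 2 samples each, for WT on the left and KO on the right. St3gal1 moves from 0.79 to 0.22 in WT and from 0.93 to 0.31 in KO, while St6galnac3 stays on the left of 0 in both.

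Over the 16 samples St3gal1 varied most closely with St3gal2 among the 10 genes (Pearson r = 0.858 of log2 CPM, n = 16), and both ran opposite to St6galnac3 (r = -0.749 and -0.755). The samples form 2 lines, so these values describe the line difference as much as anything within a line. Among 12532 genes with a mean of at least 1 CPM the closest to St3gal1 were Senp1 (r = 0.977), Flad1 (0.977) and Dele1 (0.976). For St6galnac3 they were Utf1 (0.957), Atf3 (0.949) and Furin (0.949), and for St3gal4 they were Srf (0.928), Tbc1d22b (0.866) and Kif1c (0.865). Furin is a protease of the secretory pathway, and Atf3 and Srf are transcription factors known for responses to stimulation.

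Genes near the called members were read in the same comparisons. Within 1 Mb of the St3gal1 start 7 genes were tested, of which 2 were called in WT (Tmem71 at 0.48 and Sla at -0.27) and 3 in KO (Ccn4 at -2.36, Ndrg1 at -0.77 and Tmem71 at 0.47). The neighbours thus moved in both directions. Near St6galnac3 none of 5 was called in WT and 1 in KO (Acadm at 0.32). Near St3gal4 1 of 12 was called in WT (Srpr at -0.32) and 5 of 11 in KO, 4 higher and 1 lower, among them Dcps at 0.37, Fam118b at 0.65 and Srpr at -0.27. These counts of few genes stand beside 16% of all genes called higher and 16.8% called lower in KO. In WT the shares were 4.55% and 8.25%.

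The steps before and after sialylation were read from lists of pathway genes. In both KO comparisons and in the interaction no gene of the lists for sialic acid synthesis and transport, sialic acid removal and modification, O-glycan acceptors, N-glycan acceptors, selectin ligands or carrier glycoproteins was called by edgeR. An unadjusted p under 0.05 was found for 3 of 53 such genes in the HP1α line, 5 of 54 in the HP1γ line and 2 of 54 in the interaction. For all genes tested the numbers were 635 of 14881, 1784 of 14975 and 1511 of 15776, in that order. Between the lines 10 of 53 such genes were called in WT and 22 of 54 in KO. Over all genes tested, 4.55% were called higher and 8.25% lower in WT, and 16% and 16.8% in KO. Nothing about the lists as groups is read from these counts. Of 6 synthesis genes, Gne, the enzyme that starts sialic acid synthesis, was higher in the HP1α line (log2 difference 0.38 in WT and 0.52 in KO), and Cmas, which makes CMP-sialic acid, was lower (-0.41 and -0.41). Nanp, the phosphatase between them, was called lower in KO only (-0.81, and -0.60 in WT with an edgeR adjusted p of 0.130). Neu1, the lysosomal sialidase, was called higher in both (0.31 and 0.43), 1 of 4 removal and modification genes tested.

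Among 14 O-glycan genes, Galnt6, which starts O-glycans, was called higher in the HP1α line (0.28 in WT and 0.31 in KO) and B3gnt2, which extends lactosamine chains, lower (-0.43 and -0.44). B3gnt3 was called lower in WT (-0.59), and C1galt1, the synthase of the core O-glycan on which ST3GAL1 acts, was called lower in KO (-0.35, and -0.08 in WT with an edgeR adjusted p of 0.764). In total 1 was higher and 2 lower in WT, and 2 were higher and 2 lower in KO. Among N-glycan genes, Mgat5, which adds a branch, was called lower in the HP1α line (-0.42 and -0.44), as was B4galt1, which adds the galactose that ST6GAL1 and ST3GAL enzymes cap (-0.23 and -0.39). That made 0 higher and 2 lower of 12 tested in WT and 2 higher and 4 lower of 13 in KO, Mgat4b (0.39) among the higher ones. These counts of O-glycan and N-glycan genes stand beside 4.55% of all genes called higher and 8.25% lower in WT. In KO the shares were 16% and 16.8%.

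Chst2, a sulfotransferase of selectin ligands, was called lower in the HP1α line, with 74.2 to 86.4 CPM in HP1α WT and 123 to 200 CPM in HP1γ WT (log2 difference -1.07, SE 0.140, edgeR adjusted p = 0.00271) and -0.92 in KO, and Tpst2 was called higher in KO (0.52). Of 12 carrier glycoproteins, Cd44 was called lower in the HP1α line in both (-0.35 and -0.32). In KO the counts were 3 higher and 3 lower, with Thy1 (0.47) among the higher and Cd24a (-2.70) among the lower. Over all genes 16% were called higher and 16.8% lower in KO. Cd24a, which red cell precursors also express, was at 2.08, 1.18, 3.71 and 2.88 CPM in HP1α KO and 22.2, 20.7, 3.23 and 18.3 CPM in HP1γ KO. The haemoglobin gene Hbb-bs stood at 11.6, 15.5, 59.7 and 65.6 CPM and at 360, 424, 28.7 and 292 CPM in the same samples, low in the same HP1γ KO sample, and its part in the Cd24a value was not tested. The other sialyltransferases had 6 rows tested, with St6galnac1 and both identifiers of St6galnac2 called lower in the HP1α line in both comparisons and St8sia6 called higher in KO (0.50, edgeR adjusted p = 0.0310).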

How the data were processed

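RNA-Seq of sorted splenic memory CD4+ T cells was analysed in 16 samples, grouped by the titles and genotype labels. The authors trimmed reads with Trim Galore, aligned them with STAR to GRCm39 and quantified genes with Salmon in an nf-core pipeline, from stranded mRNA libraries. The authors deposited estimated counts per gene, not normalized, of which 11.6% are not whole, and the authors also deposited TPM values, which keep no depth. No sample column was left unmapped.

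Counts were rounded and tested with edgeR 4.0.16 in R 4.3.3 (TMM, filterByExpr with a minimum count of 10, glmQLFit, glmQLFTest, Benjamini-Hochberg adjustment over all genes tested), in fits of the 8 samples compared, or of 16 for the interaction. A gene was called at an adjusted p under 0.05, and the study's DEG also has an absolute log2 fold change above 1. CPM are TMM-normalized over 16 samples, and correlations and two-sided exact permutation tests used log2(CPM + 0.5). The exact tests were not adjusted over the 10 genes. Each sample had 26694045 to 40199637 counts.

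The 10 genes and the lists were chosen with earlier results of these data known. The genes named are all 10, at most 3 called genes a list and comparison with the smallest p, 3 most similar genes and up to 3 called neighbours for each called member, and the other sialyltransferases. DESeq2 1.42.0, limma 3.58.1 on TPM, other filters, scalings and left-out samples were alternatives. The scripts were tested on simulated counts. Gene coordinates are those of GENCODE vM39, which holds 56017 of the identifiers and is a later release than the one the authors used.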

Additional observations from a re-analysis of the deposited data

Results flagged for a closer look

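In 4 of the 40 sets of 4 samples (10 genes in 4 groups), 1 sample lay far from the other 3, with a gap to its nearest neighbour above 0.829 of the whole range, a limit that chance passes in about 1 of 20 sets. St6galnac4 had its highest HP1γ WT sample, replicate 4, at 52.0 CPM. St3gal2 had its lowest HP1α WT sample, replicate 3, at 31.9 CPM, the sample without which its line difference was called. St3gal4 had its highest HP1α WT sample, replicate 4, at 47.7 CPM, and without it the St3gal4 log2 difference between the WT groups went from -0.03 to -0.13 (edgeR adjusted p = 0.297). St8sia4 had its lowest HP1γ WT sample, replicate 4, at 61.4 CPM.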

How the results depend on the processing

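Both KO effects and the interaction gave 0 calls among the 10 genes under all alternatives run. Between the WT lines, 1 gene was called higher and 1 lower. Both counts were 0 with the replicate block, with limma on log2(TPM + 1) or log2(TPM + 0.1) and from replicates 3 and 4 only. The lower count was also 0 with no filter on low counts, after the GC and length correction and from replicates 1 and 2 only, where the higher count was 2. Leaving out 1 sample gave 0 to 2 higher and 0 to 1 lower. Between the KO lines, 2 were called higher and 1 lower. These became 1 and 0 with limma on either TPM scale, 4 and 0 after the GC and length correction, and 0 and 0 from replicates 3 and 4 only. Replicates 1 and 2 only gave 5 higher. Leaving out 1 sample gave 1 to 3 higher and 0 to 1 lower. St8sia4 between the KO lines changed sign, from -0.04 to 0.46, after the GC and length correction. The cause was not tested. The correction and the splits by replicate number were chosen after seeing the data. With the split (1 and 2 against 3 and 4) as a term, no call among the 10 genes changed, and calls over all genes were 2035 between the WT lines, 5133 between the KO lines, 107 for HP1γ KO and 20 for the interaction. Of the fold changes of single genes, 972 kept their direction and side of the threshold, 33 lost a call, 8 gained one and 106 uncalled ones changed sign.

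Same-numbered samples did not deviate together in every pair (correlations of deviations from the group means 0.0847 to 0.355 in the HP1α line, 0.0497 to 0.170 in the HP1γ line, -0.201 to -0.0830 between the WT lines and -0.0945 to 0.153 between the KO lines), and not every sample matched its own number best, so single numbers were not taken as pairs. Within each line the best match of a KO sample lay within replicates 1 and 2 or within replicates 3 and 4. In fits with a replicate block, calls over all genes went from 1896 to 577 between the WT lines (St3gal1 adjusted p = 0.0660, St6galnac3 0.0910, edgeR) and from 4921 to 4132 between the KO lines, and from 49 to 60 for HP1γ KO. Over all genes DESeq2 called 253 for HP1γ KO, 79 for the interaction, 2835 between the WT lines and 5471 between the KO lines, and leaving out 1 sample gave 573 to 2185 and 3350 to 5202 for the lines.

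The counts behind each of the 10 genes were at least 201 in every sample. What sample number, spread and counting error each add to the intervals was not separated.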
